A study of Mus musculus with 60 samples.

Results

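The genes described here are the secreted ligands Gas6 and Pros1 and the receptor tyrosine kinases Axl, Tyro3 and Mertk, which together form the TAM system. They were chosen by name, and all 5 were found among the 47729 mouse genes of the count table. Each was read cell by cell in PyMT-Bo1 tumor cells recovered from bone, and the question was whether ligand and receptor transcripts lie in the same cells or in different ones. PyMT-Bo1 is a mouse breast cancer line of C57BL6 background, and the injected cells carried luciferase (Luc2), mApple, eGFP and the PyMT oncogene as transgenes. These 4 have counts of their own. The cells also carried an introduced surface marker, Thy1.1, which set them apart from host cells. Both groups came from the same injected cells. The cells were stained with the membrane dye DiD, which is diluted as a cell divides, and were injected into the left ventricle of wild-type female C57BL6/J mice aged 8 to 10 weeks. On day 11 the femurs and tibias of 5 mice were combined, tumor cells were enriched by Thy1.1, and single cells were sorted into wells as high DiD intensity (DiD+, 32 cells, called dormant by the study) or low DiD intensity (DiD-, 28 cells, called proliferative).

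Bones were pooled and cells cannot be traced to mice, which makes each group 1 sample. No test between the groups was therefore run, and none of the differences below has a replicate check within these counts. Outside these counts, the study measured Gas6 by quantitative PCR in sorted cells. It reported higher Gas6 in DiD+ than in DiD- cells, from bone and from lung. A DiD+ cell had 2276789 to 7794219 counts on mouse genes, and a DiD- cell 2624405 to 6199108. Levels are given as CPM, a gene's share of a cell's or a group's counts on mouse genes times 1000000, and ratios as the log2 of summed DiD+ over summed DiD- CPM after 1 CPM was added to each. Intervals are exact at 95% (Poisson for CPM, Clopper-Pearson for shares of cells and for ratios). Those of CPM and of ratios treat reads as independent. Reads without molecular identifiers are not independent molecules, so these intervals can be too narrow even for counting error. Those of shares treat cells as independent draws. None of them covers differences between cells in level or between mice. The transgene Luc2 had a count in 31 of 32 DiD+ and in 28 of 28 DiD- cells, and the epithelial keratin Krt8 in all 60. Of the other epithelial markers, Krt18 was counted in 58 cells, Cdh1 in 1, and Krt19, Epcam and Krt7 in 0. Of 13 macrophage markers, 6 DiD+ wells (cells 19, 21, 24, 30, 37 and 88) held 11 to 13 at 10 counts or more and 1 DiD- well (cell 84) held 13, while no other cell held more than 6. Summed macrophage marker levels were 1399 to 19946 CPM in those 7 wells and at most 185.2 CPM elsewhere. Before the sort, cells were stained for CD45, a leukocyte protein, and for Thy1.1. These 7 wells, called macrophage wells below, also held Krt8, and 6 of them held at least 1 of the 4 transgenes. Cell 30 was the only one of the 60 cells with no transgene count, and its summed erythroid markers reached 174035 CPM. Results are given with and without them where they matter.

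Gas6 and protein S, the product of Pros1, carry a domain of γ-carboxylated glutamates (Gla domain) that is made with vitamin K and binds phosphatidylserine on apoptotic cells and debris. Their other end binds TAM receptors, so that they bridge a phagocyte and its target. Gas6 can activate all 3 receptors, whereas protein S acts through Tyro3 and Mertk and binds Axl poorly. Mertk is typical of macrophages that clear dead cells, Axl of tumor cells with mesenchymal traits and of some stromal and myeloid cells, and Tyro3 of the nervous system. Gas6 was named as a gene raised in growth-arrested fibroblasts.

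Gas6 (ENSMUSG00000031451) lies on the minus strand of GRCm38 chromosome 8, from 13465374 to 13494490. The study read and targeted it with designed oligos, and these are shown because they place the assays on the transcript whose counts are given here. All 4 matched the 15-exon, 2548-base transcript at 1 place each, inside the coding sequence. The forward primer lies in exon 13, the reverse primer in exon 14 and the probe across their junction, for a spliced amplicon of 91 bases. The guide, meant for another line (D2.0R), matched exon 9 on the antisense strand, and capitals mark the NGG motif that follows it on its own strand, opposite to the transcript.

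Forward primer, chr8:13468201-13468224: gactaccactctacaaagaagctc

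Reverse primer, chr8:13466798-13466817: cgcacaccttgatttccatc

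Probe, exon 13 to 14 junction: ctcaactgccaggaccaccaact

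Guide, chr8:13475059-13475078: gaagcgtagtctaatcacggGGG

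Promoters are shown for Gas6 and Axl, because one was counted in part of one group and the other in all 60 cells. Each run holds the 250 bases before the RefSeq start (GRCm38.p6), read 5′ to 3′ on the minus strand on which both genes lie. Both strands were searched for 4 short motifs, and matches are in capitals. The letters of the GC box, which Sp1-type factors bind, were GGGCGG. The AP-1 site was searched as TGANTCA, with any base at N. The site of TEAD factors was searched as GGAATG. The TATA box was searched as TATAAA.

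Gas6, chr8:13494536-13494785: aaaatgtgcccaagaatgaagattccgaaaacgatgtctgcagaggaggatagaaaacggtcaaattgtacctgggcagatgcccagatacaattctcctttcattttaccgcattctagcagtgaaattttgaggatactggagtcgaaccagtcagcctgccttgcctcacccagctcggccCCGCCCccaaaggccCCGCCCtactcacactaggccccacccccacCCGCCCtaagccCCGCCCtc

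Axl, chr7:25788734-25788983: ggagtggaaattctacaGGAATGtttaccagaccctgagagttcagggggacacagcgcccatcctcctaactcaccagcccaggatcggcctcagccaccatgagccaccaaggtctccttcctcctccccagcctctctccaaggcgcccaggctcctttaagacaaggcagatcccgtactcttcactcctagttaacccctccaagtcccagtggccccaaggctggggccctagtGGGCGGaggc

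The Gas6 window held 4 GC boxes, at 66, 51, 20 and 8 bases before the start, with 10 CpG dinucleotides. The Axl window held 1 GC box, 10 bases before the start, 1 TEAD letter match 233 bases before it, and 5 CpG dinucleotides. A GC box was found in the same window of 32.7% of 32851 promoters, the TEAD letters in 12.6%, the AP-1 letters in 6.75% and the TATA letters in 12.4%. Pros1 held 5 GC boxes, of which the pair nearest the start overlap, Tyro3 held 3 and Mertk held 3. None of the 5 windows held the AP-1 or the TATA letters, which says only that those letters are not in these bases.

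Gas6 was counted almost only in DiD+ cells. It had 4323 counts in DiD+ cells (29.6 CPM, interval 28.7 to 30.5) and 1 count in DiD- cells (0.00837 CPM, interval 0.000212 to 0.0466). At least 1 count was present in 14 of 32 DiD+ cells (43.8%, with limits of 26.4% and 62.3%). The same held for 1 of 28 DiD- cells (3.57%, limits 0.0904% and 18.3%). A minimum of 10 counts was reached in 11 DiD+ and 0 DiD- cells. Per DiD+ cell the lowest and the median level were 0 CPM and the highest 370.2 CPM, and in DiD- cells the single value above 0 was 0.249 CPM in cell 85.

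Within DiD+, Gas6 was not even among the cells that held it. Cell 23 had 370.2 CPM, cell 43 had 163.3 CPM and the macrophage well 24 had 135.2 CPM. Cells 41, 31, 76, 29, 38, 82 and 21 lay between 29 and 76.4 CPM, cell 68 had 9.76 CPM, and cells 80, 19 and 88 had 0.232 to 1.07 CPM. Cell 23 alone carried 32.7% of the group's counts. In all, 13 DiD+ cells lay above every DiD- cell and 18 DiD+ cells had no Gas6 count.

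The log2 ratio of Gas6 was 4.92 (interval 4.87 to 4.94), and 4.41 without cell 23. Its size is set by the 1 CPM added, since without it the ratio of the CPM values was 3536 with a counting interval of 634.3 to 139706. Of 12432 genes that reached 1 CPM in a group, 12.1% had a log2 ratio of 1 or more, against 4.86% at -1 or less, and the median over all of them was 0.04. A count in at least as many DiD+ and at most as many DiD- cells was found for 0.00804% of those genes, which is Gas6 itself. Gas6 shares 3100 bases with Tmem255b on the opposite strand, which had 0 counts in both groups.

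Pros1 (ENSMUSG00000022912, plus strand of chromosome 16, 62854307 to 62929346), the gene of protein S, an anticoagulant cofactor as well as a TAM ligand, was counted in most cells of both groups. It stood at 227.1 CPM (224.7 to 229.6) in DiD+ and 186.4 CPM (184.0 to 188.9) in DiD- cells. Pros1 counts were present in 31 of 32 DiD+ cells, the exception being the macrophage well 19, and in 24 of 28 DiD- cells, with none in cells 27, 44, 91 and 92. Per cell it ran from 0 to 699.2 CPM with a median of 227.0 in DiD+, and from 0 to 606.8 CPM with a median of 143.4 in DiD-. The groups overlap over nearly their whole range, and 21 of 32 DiD+ cells lay above the DiD- median.

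The log2 ratio of Pros1 was 0.28 (0.26 to 0.31). It was 0.45 without the macrophage wells, between 0.21 and 0.42 with 1 cell left out at a time, and 0.66 between the medians over cells. Scaling each cell by its spike-ins turned its sign, to -0.12, where the median of all genes moved from 0.04 to -0.34. Relative to that shift Pros1 stood at 0.21.

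**Figure D1:**
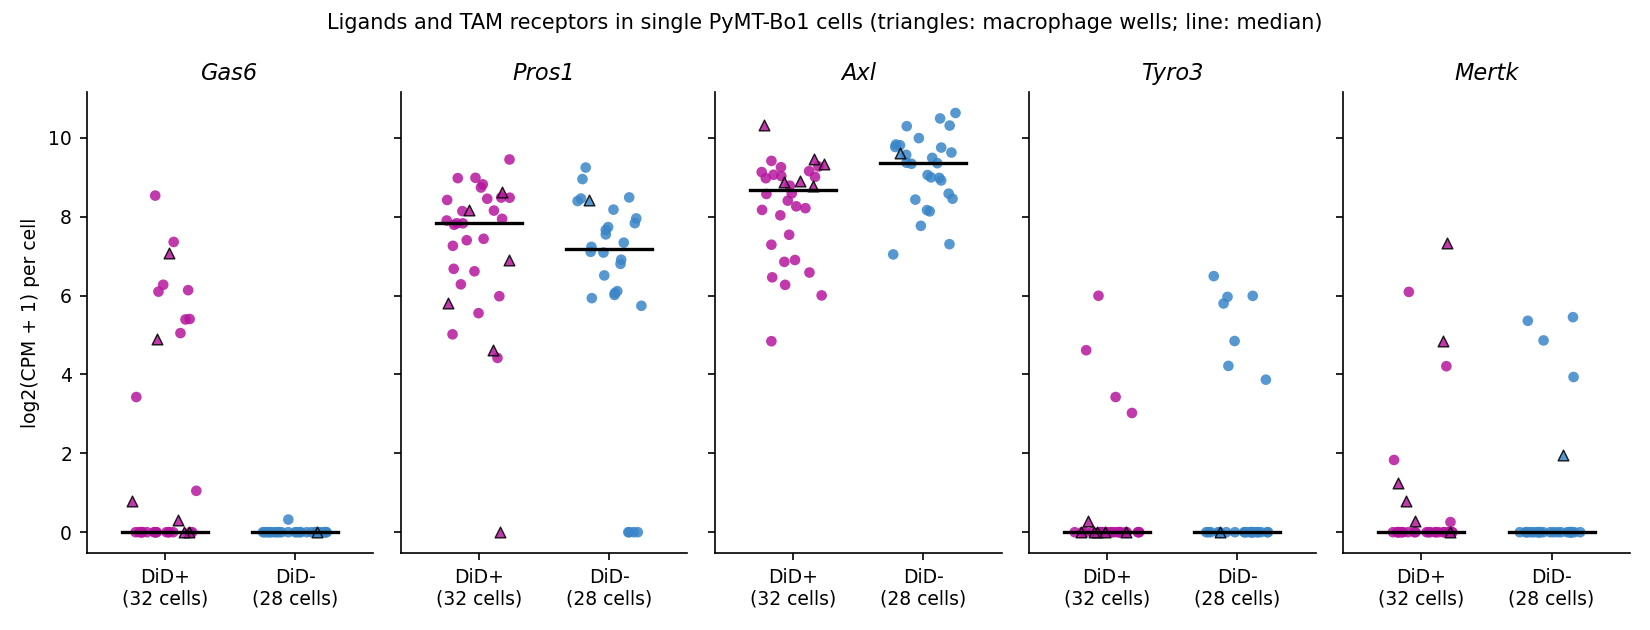
Level of each gene in each cell as log2(CPM + 1), for 32 DiD+ and 28 DiD- cells, with triangles for the 7 macrophage wells and a line at the median. Gas6 rises above 0 in 14 DiD+ cells and in 1 DiD- cell, whereas Axl is above 0 in all 60.

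Axl (ENSMUSG00000002602, minus strand of chromosome 7, 25757273 to 25788705), the receptor with the highest affinity for Gas6, was counted in every cell. Counts in all 60 cells were found for 13.8% of the 12432 genes. Axl stood at 406.6 CPM (403.3 to 409.9) in DiD+ and 682.7 CPM (678.0 to 687.4) in DiD- cells. Per cell it ran from 27.7 to 1287 CPM in DiD+, with a median of 410.7, and from 131.0 to 1585 CPM in DiD-, with a median of 657.9. The ranges overlap, but 7 DiD+ cells lay below the lowest DiD- cell, 2 DiD- cells lay above the highest DiD+ cell, and only 3 of 32 DiD+ cells lay above the DiD- median.

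The log2 ratio of Axl was -0.75 (-0.76 to -0.73), and it lay between -0.88 and -0.66 with 1 cell left out at a time. The highest DiD+ value, 1287 CPM, was that of the macrophage well 19, and the 6 DiD+ macrophage wells held 33.8% of the group's Axl counts. Without macrophage wells Axl stood at 336.2 against 680.4 CPM, a log2 ratio of -1.01. Without those wells 5.71% of 12153 genes stood at -1 or less, and 10.4% at 1 or more.

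Tyro3 (ENSMUSG00000027298, plus strand of chromosome 2, 119797733 to 119818104), a receptor for both ligands, was counted in few cells. It stood at 2.16 CPM (1.92 to 2.41) in DiD+ and 12.9 CPM (12.3 to 13.6) in DiD- cells. Tyro3 counts were present in 5 of 32 DiD+ cells (15.6%, 5.28% to 32.8%) and 7 of 28 DiD- cells (25%, 10.7% to 44.9%). In DiD+ cells the values above 0 were 62.8 CPM in cell 31, 23.5 CPM in cell 87, 9.76 CPM in cell 42, 7.13 CPM in cell 81 and 0.208 CPM in the macrophage well 37. In DiD- cells they were 89.1 CPM in cell 66, 62.7 CPM in cell 26, 61.6 CPM in cell 34, 54.7 CPM in cell 73, 27.8 CPM in cell 78, 17.6 CPM in cell 20 and 13.6 CPM in cell 79. The intervals of these shares cannot compare the groups, because each group is 1 pooled sample. The log2 ratio of -2.14 (-2.27 to -2.01) rests on these 12 cells. It was -2.66 without DiD+ cell 31 and -1.68 without DiD- cell 66. Spike-in scaling gave -1.25 for Tyro3, or -0.91 relative to the median of all genes under that scaling.

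Mertk (ENSMUSG00000014361, plus strand of chromosome 2, 128698956 to 128802894), the receptor through which macrophages engulf apoptotic cells, had a direction that depended on the macrophage wells. It stood at 8.59 CPM (8.12 to 9.08) in DiD+ and 4.88 CPM (4.49 to 5.29) in DiD- cells, with a count in 9 of 32 and in 5 of 28 cells. The log2 ratio was 0.71 (0.58 to 0.83). The 6 DiD+ macrophage wells held 71.1% of the DiD+ counts, and cell 21, at 159.4 CPM, held 59.5%. Without the macrophage wells the log2 ratio turned to -0.53, with 3.10 against 4.93 CPM, and without cell 21 alone it was -0.36.

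Outside the macrophage wells Mertk was counted in 4 of 26 DiD+ cells and in 4 of 27 DiD- cells. The DiD+ values were 67.3 CPM in cell 69, 17.5 CPM in cell 64, 2.56 CPM in cell 83 and 0.195 CPM in cell 17. The DiD- values were 42.8 CPM in cell 34, 40.1 CPM in cell 71, 28.1 CPM in cell 79 and 14.3 CPM in cell 65. Cell 69 held 6 of the 13 macrophage markers, and without wells of 5 or more such markers the log2 ratio was -1.81, an alternative chosen after the values were seen. An antisense gene in Mertk, Gm14011, had 4 counts in DiD+ and 0 in DiD- cells, and reads from it and from Mertk cannot be told apart without strand.

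Per length of the joined exons, the order in DiD+ cells was Axl at 80.8 CPM per kb, Pros1 at 55.6, Gas6 at 11.6, Mertk at 1.98 and Tyro3 at 0.348. In DiD- cells it was Axl at 135.6 CPM per kb, Pros1 at 45.6, Tyro3 at 2.08, Mertk at 1.13 and Gas6 at 0.00328. Axl exceeded Tyro3 and Mertk in each of the 60 cells. Axl and Pros1 did not keep an order within DiD+ cells, where Axl was the higher in 18 and Pros1 in 14, while in DiD- cells Axl was the higher in 23 of 28. Tyro3 and Mertk were both at 0 in 19 DiD+ and 18 DiD- cells and kept no order in the others.

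**Figure D2:**
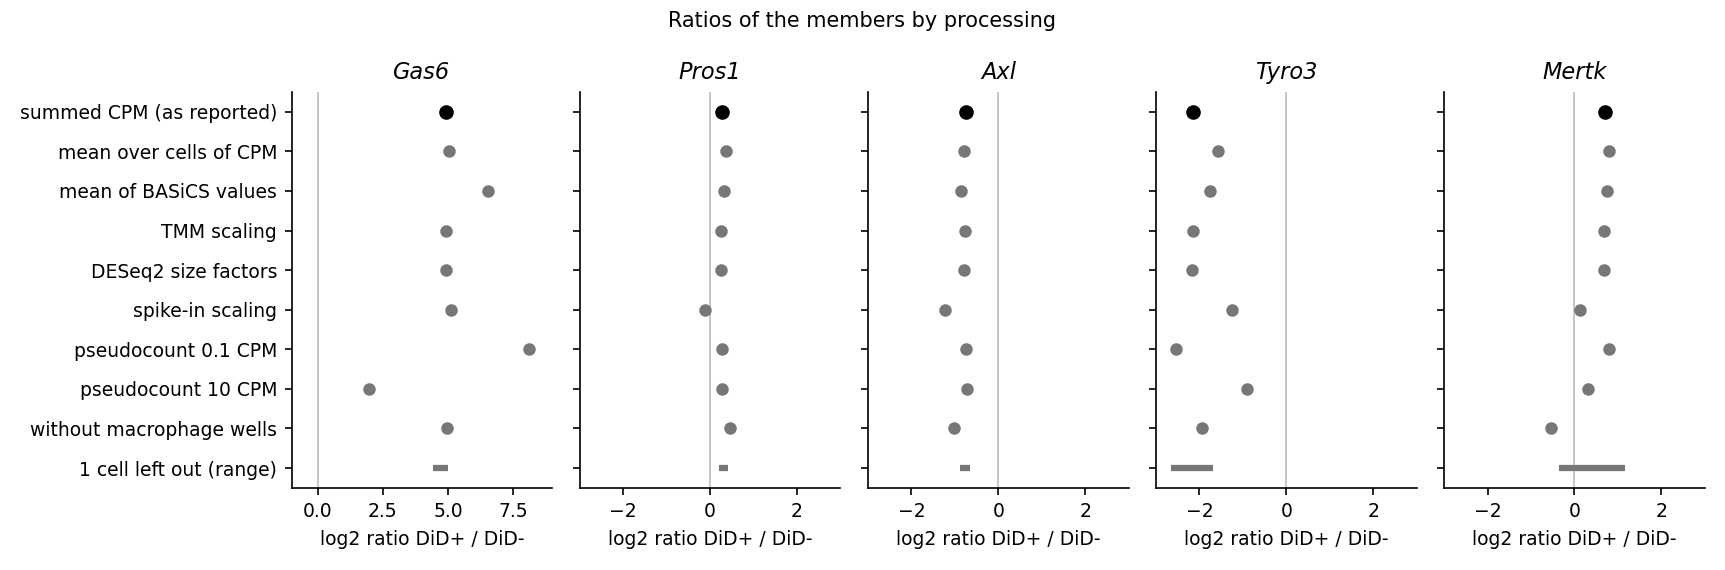
Log2 ratio of DiD+ over DiD- for each gene under each scaling, pseudocount and choice of cells, with the reported value in black and a bar for the range with 1 cell left out. Gas6 stays above 0 and Axl and Tyro3 below 0 in all of them. Mertk crosses 0 without the macrophage wells and within its bar for 1 cell left out, and Pros1 under spike-in scaling.

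Ligand and receptor in the same cell were found for Gas6 and Axl without exception. All 14 Gas6-positive DiD+ cells held Axl (interval 76.8% to 100%), as did the 1 such DiD- cell, but so did every cell without Gas6. Tyro3 was counted in 1 of the 14 (cell 31, 7.14%, 0.181% to 33.9%) and in 4 of the 18 DiD+ cells without Gas6. Mertk was counted in 4 of the 14 (28.6%, 8.39% to 58.1%) and in 5 of the 18. Pros1 was counted in 13 of the 14.

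The 4 cells with both Gas6 and Mertk were cells 19, 21, 24 and 88, and all of them were macrophage wells. Outside those wells, 0 of 10 Gas6-positive DiD+ cells had a Mertk count, which allows a share of up to 30%, and 4 of 16 without Gas6 had one. With 10 counts asked of both genes, cell 21 was the one DiD+ cell of 11 that held Gas6 and Mertk. Whether Gas6 and Mertk in a macrophage well came from 1 cell or from more than 1 cannot be told apart.

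The most frequent combinations in DiD+ cells were Pros1 with Axl (10 cells) and Gas6 with Pros1 and Axl (9 cells). Gas6, Pros1, Axl and Mertk were found together in 3 DiD+ cells, and Gas6, Pros1, Axl and Tyro3 in 1. In DiD- cells, Pros1 with Axl was found in 13 cells, Pros1, Axl and Tyro3 in 5, and Axl without the other 4 genes in 4. All 3 receptors were found together in 1 DiD+ cell, the macrophage well 37 with 1 Tyro3 count, and in DiD- cells 34 and 79. Receptors other than Axl were counted in a minority of the cells of each group, alone or with each other.

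**Figure D3:**
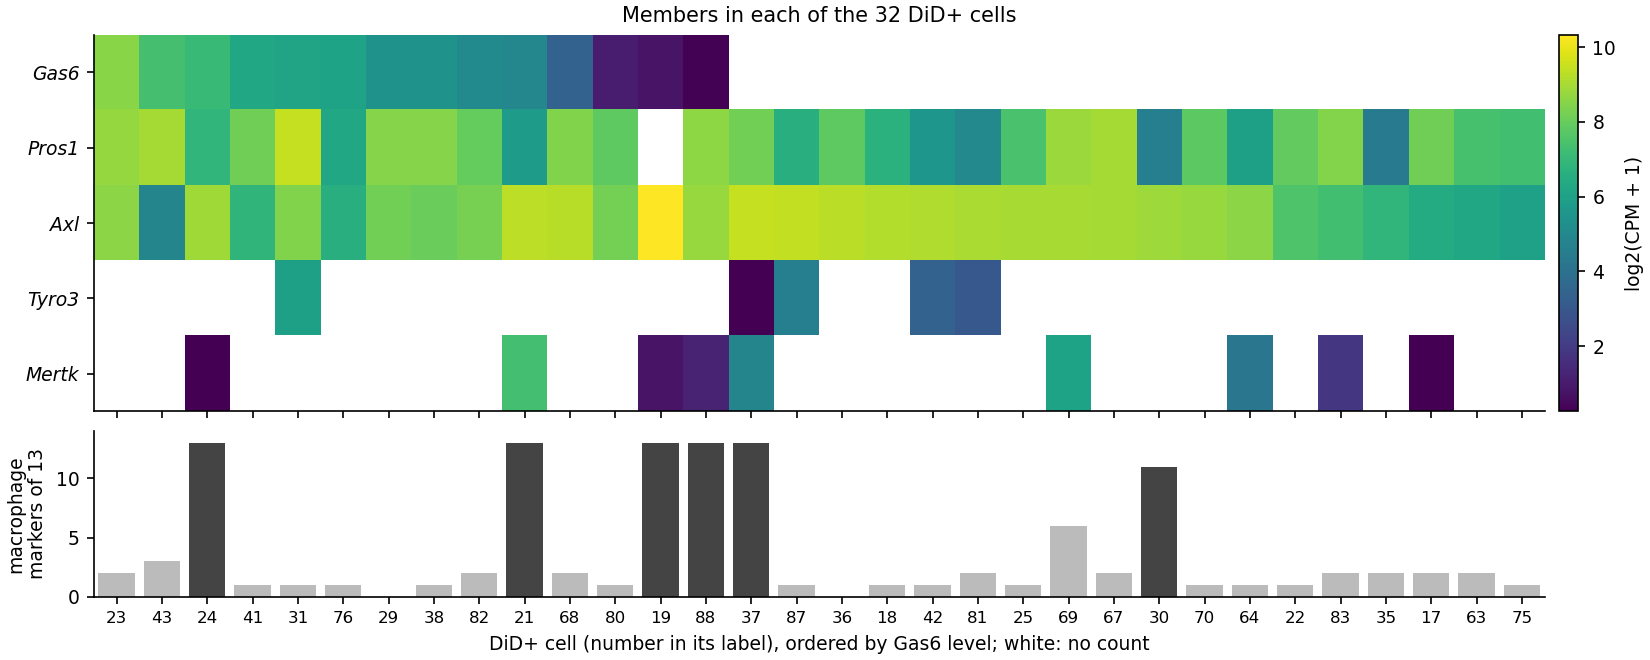
Level of each gene as log2(CPM + 1) in the 32 DiD+ cells, ordered by Gas6, with white for no count, above the number of macrophage markers of 13 in each cell (dark bars, macrophage wells). The Gas6 cells with Mertk, cells 24, 21, 19 and 88, each hold 13 macrophage markers.

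Axl was not higher in the cells with Gas6. Outside the macrophage wells, Axl had a median of 292.0 CPM (27.7 to 610.2) in the 10 Gas6-positive and 471.8 CPM (63.2 to 682.1) in the 16 Gas6-negative DiD+ cells, against 657.9 CPM in all DiD- cells. The ranges overlap. Pros1 had a median of 349.7 CPM (77 to 699.2) in the 10 and 170.5 CPM (20.4 to 506.2) in the 16. Over these 26 cells the Spearman rho of Gas6 was -0.31 with Axl and 0.52 with Pros1 (Pearson r of log2(CPM + 1), -0.27 and 0.44), given as a description since the cells share 1 pooled sample and many values are 0.

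Per length, the ligand was above its receptor in 4 of the 14 Gas6-positive DiD+ cells. Cell 23 had 145.3 CPM per kb of Gas6 and 75.7 of Axl, and cell 43 had 64.1 of Gas6 and 5.50 of Axl. Cell 41 had 30 of Gas6 and 22.8 of Axl, and cell 76 had 26.5 and 18.9. In the other 10 cells, all 4 macrophage wells among them, Axl was the higher.

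**Figure D4:**
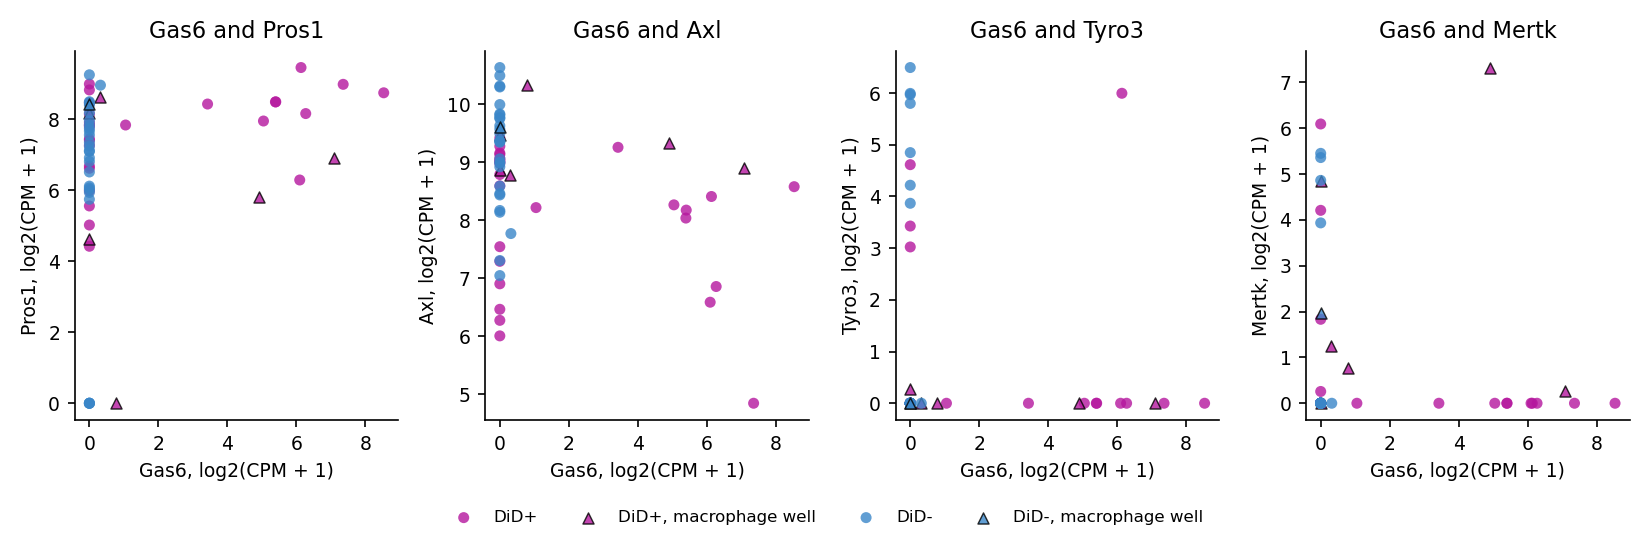
Gas6 against Pros1, Axl, Tyro3 and Mertk in each of the 60 cells, both axes as log2(CPM + 1), with triangles for macrophage wells. Axl is above 0 at every Gas6 level, and the circles with Gas6 above 0 all lie at 0 for Mertk.

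The 10 Gas6-positive DiD+ cells outside macrophage wells carried tumor marks. Each held Luc2 (90 to 795 counts) and Krt8 (572 to 9882 counts, median 2974). None had a count of the macrophage markers Csf1r or Adgre1. Of all 13 macrophage markers the 10 held 0 to 3 at 10 counts or more. The summed level of these markers had a median of 41.4 CPM in the 10 and reached 185.2 CPM in cell 68. The 16 Gas6-negative DiD+ cells held 0 to 6, with a median of 30.3 CPM and at most 113.1 CPM. Cell 29, 1 of the 10, held 4 of 5 megakaryocyte and platelet markers. Krt8 had a median of 8318 counts in the 16 Gas6-negative DiD+ cells and of 14587 counts in the 27 DiD- cells outside the macrophage well. Krt18, the partner keratin, was counted in 9 of the 10 and in 15 of the 16, at 179 CPM in the 10, 845.9 CPM in the 16 and 1602 CPM in those DiD- cells. Both keratins were lower in the Gas6-positive cells by summed or median level. Spike-ins took a median of 2.08% of counts in the 10 and 1.37% in the 16, and counts on mouse genes had medians of 3878948 and 4768137.

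Some stromal markers were higher in the Gas6-positive cells and others were not. Of 11 mesenchymal stromal markers the 10 cells held 1 to 5, with summed levels of 53.4 to 931.6 CPM, and the 16 cells held 1 to 4, with 9.02 to 664.1 CPM. Dcn, a matrix proteoglycan of stromal cells, was counted in 4 of the 10 and in 0 of the 16, and Col1a1, a chain of type I collagen, in 3 of the 10 and in 0 of the 16. By summed level, Pdgfra and Vcam1 were also higher in the 10, at 23.6 against 6.19 CPM and at 196.5 against 97.2 CPM. Pdgfra was counted in 3 of the 10, with 544 counts in 1 of them, and in 4 of the 16. Vcam1 was counted in 8 of the 10, with 4162 counts in 1 of them, and in 14 of the 16. Other markers went the opposite way. Kitl, the stem cell factor gene, was counted in 7 of the 10 and 15 of the 16, at 29.5 and 56.5 CPM. Cxcl12, a chemokine of marrow stroma, stood at 93.3 and 103 CPM, and Col1a2, the other chain of type I collagen, was counted in 0 of the 10 and 1 of the 16. Lepr, Lum, Adipoq and Ebf3 had no count in either set. Of the osteoblast markers, Spp1 (osteopontin) was counted in all 26 cells, at 12019 CPM in the 10 and 3181 CPM in the 16. Runx2, a transcription factor of osteoblasts, was at 11.1 CPM in the 10 (6 cells) and 4.31 CPM in the 16 (9 cells). Alpl was at 12.6 CPM in the 10, from 1 cell, and at 0 in the 16, and Bglap at 0.636 and 0.0269 CPM, from 1 cell each. Ibsp and Sp7 had no count. Several of these markers were also counted in most of the 27 DiD- cells outside the macrophage well. There Vcam1 was counted in 25 cells (143.7 CPM), Cxcl12 in 24 (107.2 CPM), Kitl in 25 (23.3 CPM) and Spp1 in 27 (2356 CPM). Runx2 was counted in 14 of those cells and Pdgfra in 5, but Dcn and Col1a1 in 0. Dcn or Col1a1 reached 10 counts in 6 wells (cells 29, 31, 41, 68, 76 and 80), all of them Gas6-positive. Without these and the macrophage wells, 4 of 20 DiD+ cells held Gas6, with 59.5% of its counts, and the log2 ratio was 4.80. This alternative was chosen after the values were seen, and the part of stromal RNA in the Gas6 counts of the other wells was not tested.

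Genes around the TAM receptors were taken from 8 lists of 96 genes, of which 74 reached 1 CPM in a group. Their median log2 ratio was 0.05, close to the 0.04 of all genes, and 16 stood at 1 or more, 3 at -1 or less and 55 between. The share at 1 or more was 21.6%, against 12.1% of all genes, but 6 of the 16 had 50% or more of their DiD+ counts in macrophage wells. Without those wells it was 10 of 70 genes (14.3%), against 10.4% of all genes. A single list is too short to be set against either share.

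Of the genes of the vitamin K cycle and of carboxylation, 6 of 7 were measured at 1 CPM or more. All 6 lay between -1 and 1, with a median of -0.10. Ggcx, the γ-glutamyl carboxylase, stood at 27.5 CPM (DiD+) and 35.1 CPM (DiD-), a log2 ratio of -0.34, and Aifm2, which can reduce vitamin K, at 82.1 and 70.4 CPM, a ratio of 0.22 on the same scale. The other Gla proteins had 3 of 13 genes at 1 CPM or more, with a median of 1.40. Mgp, the matrix Gla protein that inhibits calcification, reached 965.6 CPM (DiD+) and 230.5 CPM (DiD-), with a log2 ratio of 2.06 (2.09 without macrophage wells), with counts in all 60 cells. Prrg4, a transmembrane Gla protein, was at 14 and 8.22 CPM (0.70, and 1.07 without macrophage wells). Prrg2 was at 5.74 and 1.55 CPM (1.40, and 1.57 without them). The coagulation factors F2, F7, F9 and F10 had 0 counts.

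Genes that put phosphatidylserine on the outer membrane or pull it back had 7 of 9 members at 1 CPM or more, with a median of 0.03. Xkr8, a scramblase that exposes the lipid in dying cells, stood at 15.7 CPM (DiD+) and 4.18 CPM (DiD-). Its log2 ratio was 1.69 (1.97 without macrophage wells). Atp11a, a flippase that returns the lipid inward, was at 5.29 and 17 CPM (-1.52, and -1.42 without macrophage wells). Each was counted in fewer than all cells, Xkr8 in 12 DiD+ and 6 DiD- cells and Atp11a in 14 and 16.

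Other bridging proteins and receptors for phosphatidylserine had 11 of 17 members at 1 CPM or more, with a median of 0.38, 5 at 1 or more and 1 at -1 or less. Cd300a, a leukocyte receptor for the lipid, had the highest ratio, 3.18, at 16.2 against 0.895 CPM, and 100% of its DiD+ counts lay in macrophage wells. Itgav, the integrin chain that binds the bridging protein Mfge8, had the lowest among members with at least 10 CPM, -0.24, at 53.1 against 63 CPM. Of the 5 members at 1 or more, Timd4, Stab2, Stab1 and Cd300a had 70.8% to 100% of their DiD+ counts in macrophage wells, and Megf10 (1.17) had 6.53%.

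Proteases that can shed TAM receptors, and their regulators, had 8 of 8 members at 1 CPM or more, with a median of 0.00. Adam17, a sheddase of Axl and Mertk, stood at 38.6 CPM (DiD+) and 70.6 CPM (DiD-), a log2 ratio of -0.85, and Rhbdf2, which helps Adam17 mature, at 26.9 and 12 CPM (1.10, and 0.81 without macrophage wells). Adam10, which also cleaves Axl, was at 65 and 48.8 CPM (0.41). Signalling genes downstream of the receptors had 26 of 26 members at 1 CPM or more, with a median of 0.02, 3 at 1 or more and 1 at -1 or less. Cblb, a ubiquitin ligase reported to act on TAM receptors, was at 13.9 and 5.98 CPM (1.09, and 0.77 without macrophage wells), and Pik3cb, a catalytic chain of PI3-kinase, at 12.5 and 35.3 CPM (-1.43). Vav1, another of the 3 at 1 or more, had 100% of its DiD+ counts in macrophage wells. Gab1, the remaining one, was at 7.83 and 2.80 CPM (1.22, and 1.17 without macrophage wells). Akt1, at 409.2 and 460.3 CPM, had a ratio of -0.17.

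TAM receptors work with the type I interferon receptor to damp inflammation, and this list had 9 of 9 members at 1 CPM or more, with a median of 0.43 and 3 at 1 or more. Ifnar2, a chain of that receptor, stood at 69.2 CPM (DiD+) and 27.5 CPM (DiD-), a log2 ratio of 1.30 that came to 0.87 without macrophage wells. The feedback genes Socs1 and Socs3 stood at -0.15 and -0.28 (0.04 and -0.21 without those wells), and Twist2 at -0.35 (-0.81 without them). Twist1, its paralog, lay on the other side of 0, at 14.8 CPM (DiD+) and 9.62 CPM (DiD-), a log2 ratio of 0.58 (0.71 without macrophage wells). Receptor kinases that can pair with Axl had 4 of 7 members at 1 CPM or more, with a median of 0.26. Met, the receptor of hepatocyte growth factor, stood at 36.1 CPM (DiD+) and 63.2 CPM (DiD-), a log2 ratio of -0.79, and Pdgfra, a growth factor receptor of mesenchymal cells, at 10 and 6.92 CPM (0.48).

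**Figure D5:**
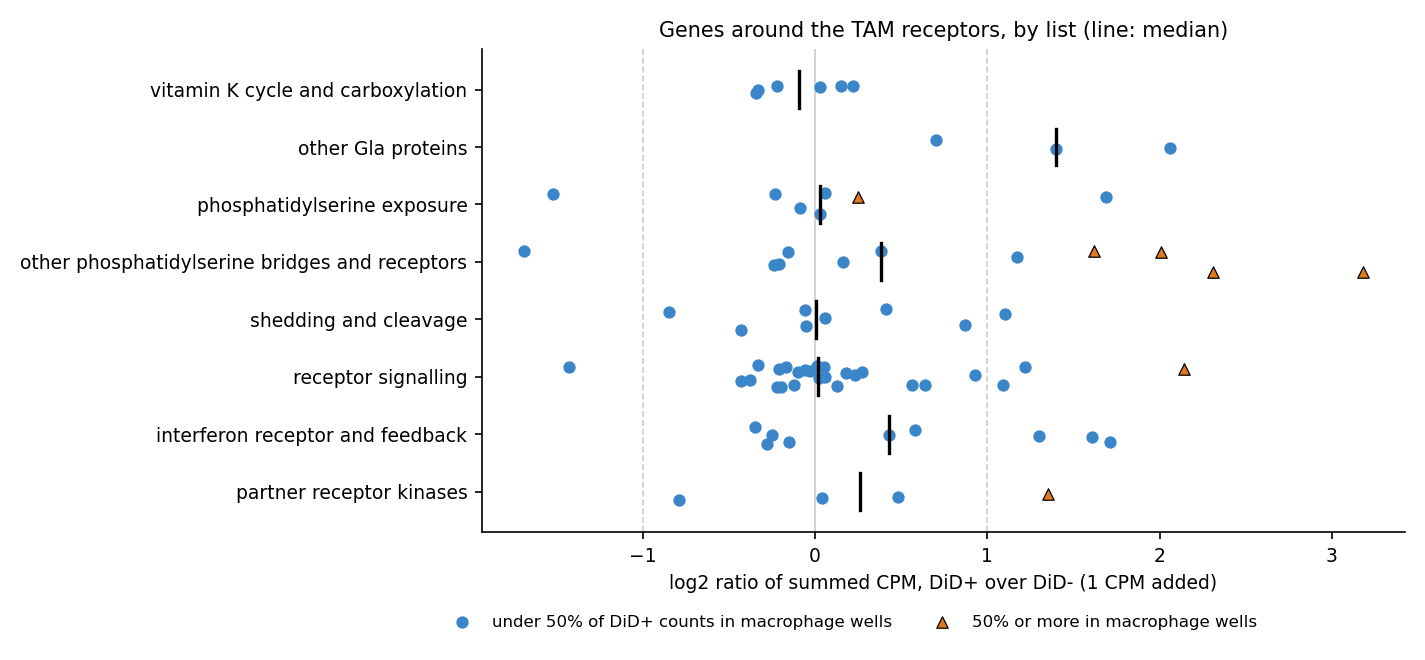
Log2 ratio of summed CPM, DiD+ over DiD-, for the 74 genes that reached 1 CPM in a group, by list, with a line at each list's median and triangles for genes with 50% or more of their DiD+ counts in macrophage wells. Most genes lie between -1 and 1, and 4 of the 5 ratios of 1 or more among the other phosphatidylserine bridges and receptors are triangles.

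The genes whose level over the 60 cells was most like that of Gas6, among 8694 compared, were F13a1 (Spearman rho 0.59), Rnf130 (0.56), Prelp (0.54), Rnase4 (0.53) and Mgp (0.53). Prelp, a matrix proteoglycan, had a level of 31.8 CPM in the DiD+ group, with counts in 11 of its cells and in 1 DiD- cell. F13a1, a transglutaminase chain made by macrophages and platelets, was counted in 8 DiD+ and 3 DiD- cells. Without macrophage wells, 3 of the 5 genes remained among the 5 highest, namely Prelp (rho 0.66), Mgp (0.61) and Rnf130 (0.56). F13a1 (0.56) moved from rank 1 to rank 6, and Rnase4 (0.53) to rank 8. The genes most like Axl were Ahcy (0.57), Nptx1 (0.56), Carm1 (0.56), Itga3 (0.54) and Alg8 (0.53). Itga3, the α3 integrin chain, stood at 135.0 CPM (DiD+) and 228.9 CPM (DiD-), and over the 53 cells outside macrophage wells its rho with Axl was 0.71, the highest of the genes compared. Both groups entered each rho, so a difference between the groups is part of it, and no rho within 1 group was taken for these genes. The 5 genes like Gas6 had log2 ratios of 0.89 to 5.03, and the 5 like Axl of -0.92 to -0.33. These values rest on cells of 1 pooled sample and describe that sample only.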

How the data were processed

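Single PyMT-Bo1 cells were sorted from pooled mouse bones, and GEO's labels gave each cell's group. According to the submitters' processing notes and the study's methods, adapters were trimmed, STAR placed reads on GRCm38/mm10 with spike-in and transgene sequences added, and RSEM produced estimated counts. The authors deposited these estimated counts as they were, not normalized, and 96.6% of the values are whole. The deposited signal table holds values normalized by the authors with BASiCS, a package for single-cell counts, and was used only as an alternative. The labels and the methods differ on instrument and read length.

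Estimated counts were rounded, and the 92 spike-ins and 4 transgenes were left out of totals. Counts were summed per group and scaled to CPM, and log2 ratios were taken with a pseudocount of 1 CPM. Where nothing was counted, the limit was set at 3 counts (cells, for shares). Each group is 1 sample, so edgeR's quasi-likelihood test was not run. The CPM at 1 count depends on depth, and values near 0.0205 CPM (DiD+) or 0.0251 CPM (DiD-), the limits of 0, cannot be compared.

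The members, the 8 pathway lists, the 11 marker lists and the rules were chosen with earlier results of these data known. Named genes were the members, per list the highest and lowest ratio above a level of 10 CPM, and the 5 highest Spearman rho with Gas6 and with Axl above that level and with counts in at least 10 cells. Other list genes named in the text were chosen after their values were seen, and some genes that the rule would name are not reported here, though list counts and medians include them where they are list members.

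Alternatives were the mean over cells of CPM, BASiCS values, spike-in scaling, edgeR TMM and DESeq2 size factors, pseudocounts of 0.1 and 10 CPM, 10 counts per gene, thinning to 2200000 counts, other minimums, gene length, and leaving out macrophage wells or each cell. Positions are GENCODE M21 (GRCm38). Python 3.11.15 (numpy 2.4.6, pandas 2.3.3, scipy 1.17.1, matplotlib 3.10.9) and R 4.3.3 (edgeR 4.0.16, DESeq2 1.42.0) were used. The ratio step was tested on simulated Poisson counts per group, with changes put into genes at 10 CPM or more. That simulation had no spread between cells, so it does not bear on genes counted in few cells.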

Additional observations from a re-analysis of the deposited data

How the results depend on the processing

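With 1 cell left out at a time, the log2 ratios ran from 4.41 to 4.98 for Gas6, 0.21 to 0.42 for Pros1, -0.88 to -0.66 for Axl, -2.66 to -1.68 for Tyro3, -0.36 to 1.17 for Mertk and 0.00 to 0.11 for the pathway median. Gas6 was 5.05 by the mean over cells of CPM, 6.55 by BASiCS values, 5.12 by spike-in scaling, 8.10 and 1.98 with 0.1 and 10 CPM added, and 4.95 without macrophage wells. Pros1 was 0.37, 0.32 and -0.12 under the first 3 of these, 0.26 by TMM, 0.25 by DESeq2 size factors, 0.45 without macrophage wells and 0.66 by medians. Axl was -0.79, -0.85, -1.22, -0.77, -0.78, -1.01 and -0.68 under the same 7. Tyro3 was -1.58, -1.75 and -1.25 under the first 3, -2.53 and -0.91 with 0.1 and 10 CPM added, and -1.95 without macrophage wells. Mertk was 0.12 by spike-in scaling, 0.32 with 10 CPM added, -0.53 without macrophage wells and -1.81 without wells of 5 or more markers. Leaving out wells with Dcn or Col1a1 too gave 4.80 for Gas6, 0.36 for Pros1, -0.96 for Axl, -2.35 for Tyro3 and -0.30 for Mertk. The medians, the leave-out of wells with 5 or more markers and that of wells with Dcn or Col1a1 were chosen after the values were seen. The share of Gas6-positive DiD+ cells with Mertk was 0% without either set of macrophage wells, and the share of DiD- cells with Gas6 was 0% at 10 counts (3 of 28 cells is the limit of 0). The pathway median turned to -0.33 by spike-in scaling, where the median of all genes moved from 0.04 to -0.34. Relative to that shift Gas6 stood at 5.46, Pros1 at 0.21, Axl at -0.89, Tyro3 at -0.91 and Mertk at 0.46. The wells themselves make the change where wells were left out, and the cause of the other changes was not tested. With 1 sample per group, no alternative bears on how mice differ, and genes counted in few cells, such as Tyro3 and Mertk, rest on single wells.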
